A study of Homo sapiens with 4 samples.

Results

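The class II and class IV histone deacetylases (HDACs) are the 7 zinc-dependent deacetylases outside class I. They were taken by gene symbol: HDAC4, HDAC5, HDAC7 and HDAC9 (class IIa), HDAC6 and HDAC10 (class IIb) and HDAC11 (class IV). On the array, 8 transcript clusters carried these symbols, of 16098 clusters with a symbol and 53617 clusters in all. HDAC4 had 2 clusters and each of the others 1. Their transcripts were followed in HCT116 cells, a human colorectal carcinoma cell line, in 4 conditions: untreated, 1 mM hydroxyurea for 24 h, 2 µM MS-275 for 24 h, and both drugs together for 24 h (MS-275/hydroxyurea). Hydroxyurea starves cells of deoxynucleotides and stalls their DNA replication, and MS-275 (entinostat) is a benzamide that blocks HDAC1, HDAC2 and HDAC3, which belong to class I as HDAC8 does. Each condition was measured on 1 GeneChip Human Gene 2.0 ST array of bulk RNA. Therefore no difference between conditions has a replicate error or a p-value, and every value describes these arrays only.

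HDACs remove acetyl groups from lysines of histones and other proteins. The class IIa enzymes have almost no deacetylase activity of their own and act as signal-controlled co-repressors. In the nucleus they bind the MEF2 transcription factors and silence their target genes, and once calcium/calmodulin-dependent kinases or protein kinases D phosphorylate them, 14-3-3 proteins hold them in the cytoplasm. The class IIb enzymes work mainly outside chromatin, HDAC6 on tubulin and cortactin and HDAC10 on acetylated polyamines. HDAC11, the only class IV enzyme, removes long fatty acyl groups from proteins. The question the arrays address here is whether inhibition of HDAC1, HDAC2 and HDAC3, replication stress or both came with altered transcript levels of class II and IV enzymes.

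The start regions of 3 members are printed because these genes stood for 3 of the patterns in the data. HDAC9 was higher on the arrays with MS-275, HDAC7 was lower with both drugs, and HDAC10 stayed nearly level. Each window is RefSeq sequence of the build GRCh38.p14, 5′ to 3′ on the gene's strand. It holds the 250 bases before the annotated start and the 50 bases that begin with the start base. Capitals mark matches on either strand to the MEF2 motif, to the GC box GGGCGG and to the CCAAT box, and the matches in these windows did not overlap one another.
HDAC9, chr7:18086575-18086874, plus strand: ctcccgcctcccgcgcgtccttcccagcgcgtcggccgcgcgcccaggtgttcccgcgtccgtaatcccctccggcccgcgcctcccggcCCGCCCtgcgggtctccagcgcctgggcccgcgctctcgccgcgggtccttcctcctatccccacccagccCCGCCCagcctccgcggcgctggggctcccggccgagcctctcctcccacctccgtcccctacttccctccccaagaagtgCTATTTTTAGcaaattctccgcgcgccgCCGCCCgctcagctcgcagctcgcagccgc
HDAC7, chr12:47819854-47820153, minus strand: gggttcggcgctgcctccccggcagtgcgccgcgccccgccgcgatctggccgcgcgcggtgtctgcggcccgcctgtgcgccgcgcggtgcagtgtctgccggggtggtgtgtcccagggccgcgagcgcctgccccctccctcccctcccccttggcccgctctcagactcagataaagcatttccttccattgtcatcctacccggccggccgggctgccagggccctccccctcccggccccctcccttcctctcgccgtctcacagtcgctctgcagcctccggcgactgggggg
HDAC10, chr22:50251216-50251515, minus strand: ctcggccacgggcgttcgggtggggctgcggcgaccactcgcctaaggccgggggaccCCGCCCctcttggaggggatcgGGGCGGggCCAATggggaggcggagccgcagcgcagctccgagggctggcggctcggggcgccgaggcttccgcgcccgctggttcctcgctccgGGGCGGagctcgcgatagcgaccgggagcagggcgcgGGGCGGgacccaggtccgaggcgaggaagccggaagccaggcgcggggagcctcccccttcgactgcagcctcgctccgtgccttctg

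The HDAC9 window held 1 MEF2 match, whose first base lay at -8 from the start, and 3 GC boxes. It was the only window with a MEF2 match among the 16 windows listed for 6 members, and 1 of 5 listed for HDAC9. No window was listed for HDAC5. Over all 35116 promoter windows of the same length, 2.99% held a MEF2 match, 45.0% a GC box and 34.6% a CCAAT box. The HDAC7 window had none of the 3 motifs, and the HDAC10 window had 4 GC boxes and 1 CCAAT box at -162. GC boxes were also found in 3 of 3 windows of HDAC6, in the 1 window of HDAC11 and in 1 of 5 windows of HDAC4. The GC content of the 3 printed windows lay between 74.7% (HDAC7) and 77.0% (HDAC10). Which of these start sites a transcript cluster reports is not known here, and a match is a match of letters only.

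The arrays had median intensities between 45.9 and 47.1. Of 16 epithelial and colorectal markers 14 had a named cluster, and 8 of these were brighter than the filter on dim genes, which lay at an intensity of 90.5 (the median of all named clusters). The intensities of the 14 named markers added up to 6649 for the untreated, 6933 for the hydroxyurea, 6641 for the MS-275 and 6337 for the MS-275/hydroxyurea array. Single markers went opposite ways. CLDN4, a tight junction claudin, had intensities of 456, 523, 299 and 311 in that order. Among the 8 markers brighter than the filter, only CLDN4 passed 1.5-fold in both MS-275 comparisons (1.52 and 1.68 times lower). KRT19, a keratin, had 571, 552, 1083 and 628. CLDN7 (1.54 times lower), KRT18 (1.27-fold) and EPCAM (1152 to 865) also differed with MS-275 alone, and the part of any such shift in the results was not tested. The intestinal markers CDX1, CDX2, VIL1, KRT20, CEACAM5 and CEACAM6 were below the filter by their mean over the arrays. KRT20 was above it on the arrays with a drug (95.3, 90.9 and 94.8) and CDX2 on the hydroxyurea array (100.9). CEACAM5 (20.2, 23.1, 44.4 and 73.9) and CEACAM6 (14.1, 10.0, 21.6 and 32.4) were higher past 1.5-fold in both MS-275 comparisons, but on dim signals. Of 16 markers of blood, endothelial, fibroblast and other cells, 8 had a named cluster and 1, DES, was brighter than the filter, and their summed intensity was 300.4 to 315. In bulk RNA, a different share of cells in a phase of the cell cycle and a different amount of RNA per cell cannot be told apart, which holds for every value that follows.

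With the brighter HDAC4 cluster, the 4 class IIa genes moved over a wider range than the other members. HDAC5, which represses MEF2 targets in heart and skeletal muscle, had an intensity of 228 in untreated cells, of 266 after hydroxyurea, of 299 after MS-275 and of 352 after both. Its intensity was lowest in untreated cells, intermediate with either drug and highest with both. MS-275 came with 1.31-fold more signal without hydroxyurea and 1.32-fold more with it, and hydroxyurea with 1.16-fold more without MS-275 and 1.18-fold more with it. The log2 difference with both drugs, 0.62, lay 0.01 from the sum of the 2 single-drug differences. At 1.54-fold over untreated cells, HDAC5 with both drugs was the only member to pass 1.5-fold in any comparison. The call ends with an offset of 50 before log2 (0.53), and with each array centred on its median HDAC9 passes too (0.59). In that comparison 16.2% of the 7649 genes brighter than the filter differed by more than HDAC5 did, in either direction.

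HDAC9, a class IIa co-repressor of MEF2 in muscle that also acts in regulatory T cells, was dim, with intensities of 46.6 untreated, 49.0 after hydroxyurea, 66.1 after MS-275 and 68.7 after both. These fell into a lower pair without MS-275 and a higher pair with it. MS-275 gave 1.42-fold without and 1.40-fold with hydroxyurea, whereas hydroxyurea gave 1.05-fold and 1.04-fold. HDAC9 was below the filter on every array and is therefore not among the genes tested, and ratios of such dim signals are compressed by background.

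HDAC4 and HDAC7 were highest in untreated cells. HDAC4, a class IIa enzyme known for restraining chondrocyte and muscle differentiation, was measured at 129 in untreated cells, at 87.2 after hydroxyurea, at 116 after MS-275 and at 109 after both drugs. The hydroxyurea array was the lowest of the 4, and the other three lay between 109 and 129. Hydroxyurea alone came with a 1.48 times lower signal, just inside the 1.5-fold bound, and 4.90% of the genes tested differed by more in size. The value of 87.2 lay under the filter level of 90.5, and an offset of 50 took the log2 difference from -0.57 to -0.39. In the presence of MS-275 the hydroxyurea difference was 0.947-fold, MS-275 gave 0.894-fold alone and 1.26-fold in the presence of hydroxyurea, and the log2 difference with both drugs exceeded the sum of the single drugs by 0.49. Of the genes tested, 7.66% departed further from additivity. The second, dimmer cluster of HDAC4 was at 69.1 untreated, 59.7 after hydroxyurea, 58.5 after MS-275 and 59.5 after both. It was highest in untreated cells as well, but was 1.16 times lower with hydroxyurea and departed from additivity by 0.24, so the size of the HDAC4 differences rests on the choice of cluster.

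HDAC7, the class IIa enzyme of developing thymocytes and of endothelial cells, was measured at 197 untreated, at 195 after hydroxyurea, at 177 after MS-275 and at 139 after both drugs. It was nearly equal on both arrays without MS-275 and lowest with both drugs. MS-275 came with a 1.11 times lower signal alone and a 1.40 times lower signal in the presence of hydroxyurea, and hydroxyurea with 0.994-fold alone and a 1.27 times lower signal in the presence of MS-275. With both drugs HDAC7 was 1.41 times lower than in untreated cells. The log2 difference with both drugs lay 0.34 below the sum of the single drugs (a non-additivity of -0.34), and 19.4% of the genes tested departed further.

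**Figure D1:**
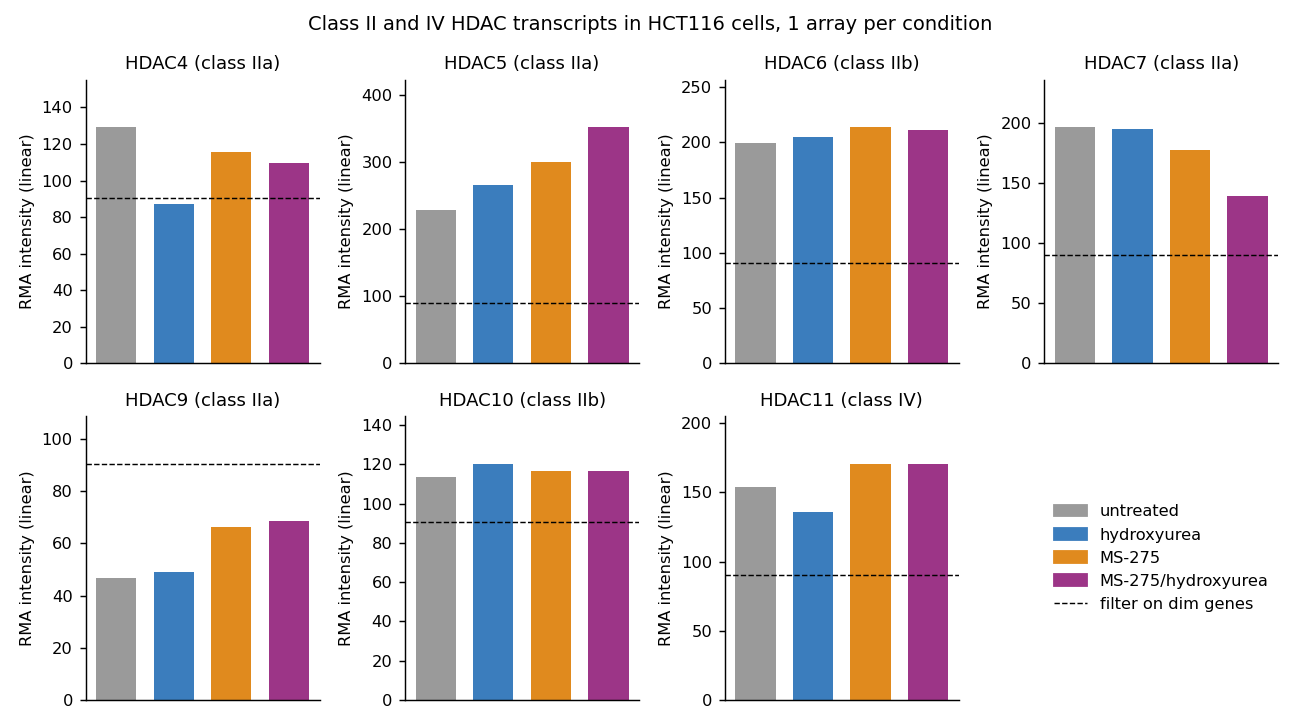
Bars give the RMA intensity (linear scale, axis from 0, scaled for each gene) of the 7 genes on the 1 array of each condition, and the dashed line marks the filter on dim genes at 90.5. HDAC5 climbs from 228 in untreated cells to 352 with both drugs, HDAC7 is lowest with both drugs at 139, HDAC4 is lowest with hydroxyurea at 87.2, HDAC9 lies below the line on every array, and HDAC6 and HDAC10 are nearly flat.

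The class IIb genes moved little, and HDAC11 of class IV differed by up to 1.26-fold between arrays. HDAC6, the main tubulin deacetylase, which also carries ubiquitinated proteins to the aggresome, had intensities of 200, 204, 214 and 211 in untreated, hydroxyurea, MS-275 and MS-275/hydroxyurea cells. HDAC10, which removes the acetyl group of N8-acetylspermidine, had intensities of 114, 120, 117 and 117. The highest and the lowest array differed by 1.07-fold for HDAC6 and by 1.06-fold for HDAC10, and with no replicate arrays such differences have no error to be set against. HDAC11 had intensities of 154, 136, 171 and 171. Both arrays with MS-275 were equal and highest, and the hydroxyurea array was lowest. MS-275 gave 1.11-fold alone and 1.26-fold in the presence of hydroxyurea, and hydroxyurea was 1.13 times lower alone and 1.00-fold in the presence of MS-275.

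Across the 4 arrays, the highest and lowest intensity differed by 1.41-fold to 1.54-fold for the class IIa genes, with a median of 1.48-fold, and by 1.06-fold to 1.26-fold for the class IIb and IV genes. With the dimmer HDAC4 cluster, at 1.18-fold, HDAC4 falls among the latter, so the separation of the classes rests on the brighter cluster. The same ratio was 1.15-fold to 1.37-fold for the 4 class I genes, with the brighter HDAC2 cluster, and had a median of 1.35-fold over all genes tested. It passed 1.5-fold for 1 of the 7 members, or 14.3%, against 31.5% of the genes tested. The split between class IIa and the remaining members describes 7 genes and has no test.

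None of the 7 members passed 1.5-fold with MS-275 against untreated cells, where 6.94% of the genes tested were higher and 6.84% lower by that much. The count was also 0 of 7 for MS-275/hydroxyurea against hydroxyurea (8.67% higher and 5.41% lower among the genes tested), for hydroxyurea against untreated (3.12% and 1.27%) and for MS-275/hydroxyurea against MS-275 (4.84% and 1.03%). With both drugs against untreated cells, 1 of 7 members was higher (HDAC5, against 11.7% of the genes tested) and 0 of 7 were lower (against 6.84%). An MS-275 difference past 1.5-fold both without and with hydroxyurea was found for 0 of 7 members, against 4.85% of genes higher and 2.92% lower. The corresponding hydroxyurea count, without and with MS-275, was 0 of 7 against 1.36% higher and 0.275% lower. With background shares this low, counts of 0 or 1 among 7 genes do not set the members apart from the genes tested.

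**Figure D2:**
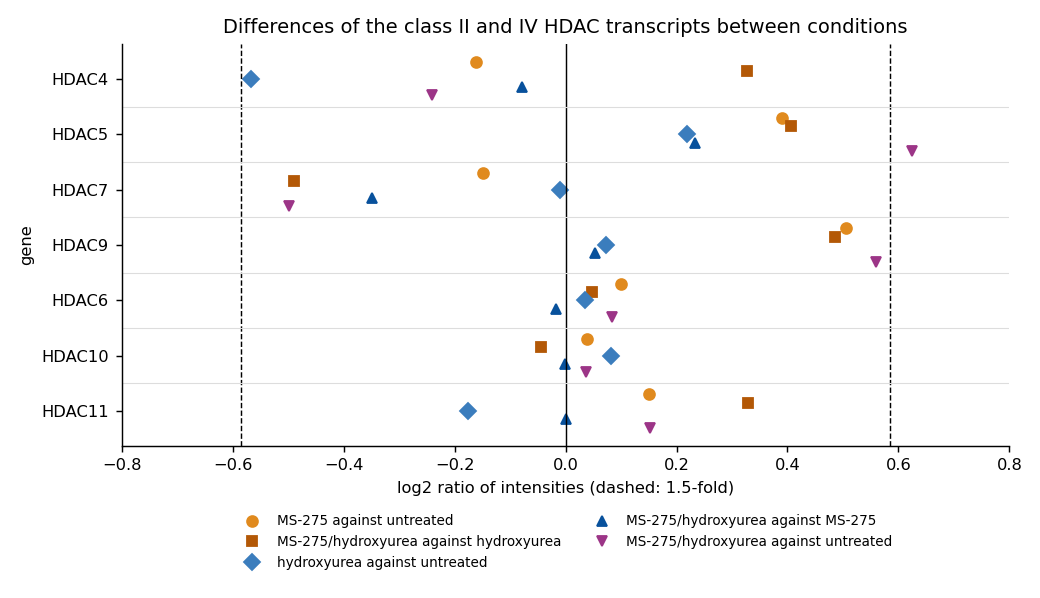
Points give the log2 ratio of intensities (x axis) of each gene (y axis) in 5 comparisons of the 4 conditions, with dashed lines at 1.5-fold. The 4 class IIa genes in the upper rows spread from -0.57 (HDAC4, hydroxyurea against untreated) to 0.62 (HDAC5, both drugs against untreated), while HDAC6 lies between -0.02 and 0.10 and HDAC10 between -0.04 and 0.08.

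The median log2 difference over the 7 members was 0.10 for MS-275 against untreated and 0.33 for MS-275/hydroxyurea against hydroxyurea, beside -0.01 and 0.00 over all genes tested. The value of 0.33 is that of the brighter HDAC4 cluster. It became 0.19 over the 6 members that passed the filter, 0.16 with the mean of a gene's clusters and 0.048 with the dimmest cluster. For hydroxyurea it was 0.04 without and -0.00056 with MS-275, beside 0.01 and 0.03. By direction alone, 4 of 7 members were higher with MS-275 in both backgrounds (HDAC5, HDAC6, HDAC9 and HDAC11) and 1 was lower in both (HDAC7), against 37.7% and 38.8% of the genes tested. Hydroxyurea came with higher HDAC5 and HDAC9 and with lower HDAC4 and HDAC7 in both backgrounds, that is 2 of 7 each way against 36.5% and 29.4%. Both lower directions turn with the processing: HDAC7 with hydroxyurea alone went from -0.0092 to 0.022 with arrays centred on their medians, and HDAC4 with hydroxyurea in the presence of MS-275 from -0.08 to 0.03 with its dimmer cluster. The typical size of a difference, regardless of direction, was 1.11-fold for the members and 1.17-fold for all genes tested with MS-275 alone, and 1.06-fold and 1.11-fold with hydroxyurea alone. In the presence of the other drug it was 1.26-fold for the members and 1.18-fold for all genes with MS-275, and 1.04-fold and 1.12-fold with hydroxyurea.

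**Figure D3:**
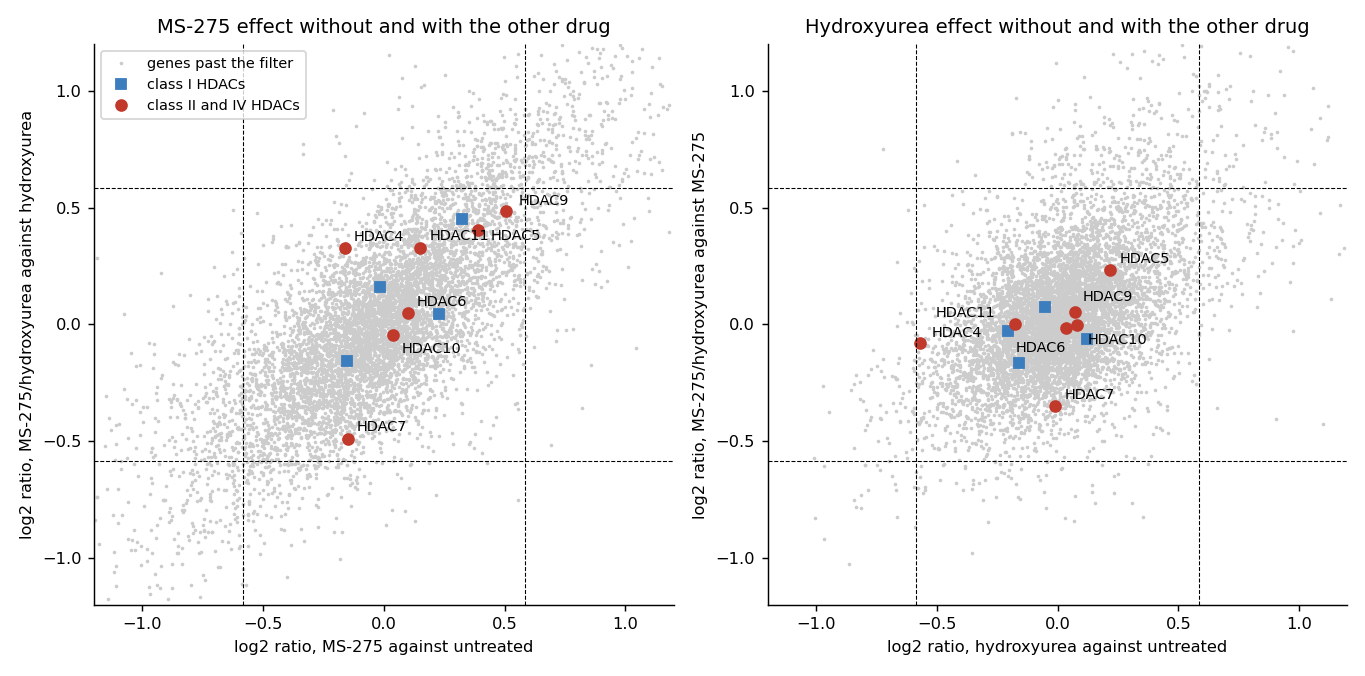
Log2 ratios with MS-275 (left) and with hydroxyurea (right), without the other drug on the x axis and with it on the y axis; red points are the 7 class II and IV HDACs, blue squares the 4 class I HDACs, grey points the genes tested (175 on the left and 49 on the right lie outside the axes) and dashed lines 1.5-fold. HDAC5 and HDAC9 are upper right for MS-275 at 1.31-fold to 1.42-fold, HDAC7 is lower left, HDAC4 stands apart on the right at 1.48 times lower with hydroxyurea alone, and no member lies beyond the dashed lines on both axes.

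HDAC5 was the only member whose highest and lowest arrays differed by 1.5-fold or more, and the genes with the most similar pattern were sought for it. Likeness was the Euclidean distance between log2 intensities of the 4 arrays, each gene centred on its mean, over 7648 other genes. The nearest were SH3PXD2A (distance 0.022), which encodes a scaffold of invadopodia, HSPA2 (0.030), a heat shock protein of the HSP70 family, and BBS2 (0.042), a subunit of the BBSome of primary cilia. SH3PXD2A had intensities of 113, 133, 150 and 174 in untreated, hydroxyurea, MS-275 and MS-275/hydroxyurea cells. HSPA2 had 87.3, 103, 117 and 138, under the filter level of 90.5 in untreated cells, and passed the filter through the other arrays. BBS2 had 391, 446, 508 and 580. Such a pattern over 4 points was shared by many genes, of which 389 lay within a distance of 0.2 of HDAC5.

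The class I genes include those of the 3 enzymes that MS-275 inhibits as proteins, HDAC1, HDAC2 and HDAC3. HDAC3, the catalytic subunit of the NCoR/SMRT complex, had intensities of 512, 494, 641 and 674, and both arrays with MS-275 were above both without it. HDAC8, a class I enzyme that deacetylates cohesin, had 159, 142, 143 and 127, highest in untreated cells and lowest with both drugs. HDAC1 had 1567, 1706, 1837 and 1758, and the brighter cluster of HDAC2 had 148, 129, 147 and 144. With these clusters none of the 4 passed 1.5-fold in any comparison. The second HDAC2 cluster was dim, at 23.4, 25.0, 21.5 and 15.4. It was 1.62 times lower with MS-275/hydroxyurea against hydroxyurea and 1.52 times lower with both drugs against untreated cells. Of 17 named subunits of class I complexes, all brighter than the filter, 1 was lower past 1.5-fold with MS-275 in both backgrounds (2.92% of the genes tested) and 0 were higher (4.85%). That gene was CHD3, a helicase of the NuRD complex, with intensities of 363, 406, 182 and 237. Both arrays with MS-275 were below both without it. CHD4, of the same complex and at 1600 in untreated cells, was 1.26 and 1.11 times lower with MS-275 without and with hydroxyurea. With both drugs against untreated cells, 3 of the 17 subunits were lower past 1.5-fold and 0 higher, beside 6.84% and 11.7% of the genes tested. The 3 were CHD3, TBL1XR1 (976 to 556) and TBL1X (305 to 194). TBL1XR1 and TBL1X are subunits of the NCoR/SMRT complex. Of the 7 sirtuins, the NAD-dependent class III deacetylases, 6 passed the filter and 0 of these differed by 1.5-fold in any comparison. For 31.5% of the genes tested, the highest and lowest array differed by 1.5-fold or more. SIRT2, a tubulin deacetylase like HDAC6, came closest among the 6, with intensities of 130, 161, 167 and 184.

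Of 11 transcription factors and co-repressors that bind class IIa HDACs and had a named cluster, 8 passed the filter, and 2 of the 8, MEF2C and BCL6, were higher past 1.5-fold with MS-275 in both backgrounds and 0 lower, against 4.85% and 2.92% of the genes tested. MEF2C, a MEF2 factor of muscle, neurons and B cells, had intensities of 89.4 untreated, 65.2 after hydroxyurea, 182 after MS-275 and 143 after both. It was near or under the filter level without MS-275 and passed the filter through the arrays with it, so it had to be higher there and its 2.04-fold and 2.19-fold rest on dim signals. BCL6, a repressor that recruits class IIa HDACs, had intensities of 249, 299, 517 and 489, that is 2.07-fold and 1.63-fold with MS-275. MEF2A (247, 247, 299 and 311) and MEF2D (557, 674, 664 and 688) stayed within 1.5-fold. CTBP1, a co-repressor, was lower past 1.5-fold with both drugs against untreated cells, at 143 against 237. In that comparison 1 of the 8 was lower and 2 were higher, beside 6.84% and 11.7% of the genes tested. The median log2 difference of the 8 genes with MS-275 was 0.23 without and 0.18 with hydroxyurea.

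Among the kinases, phosphatases, 14-3-3 proteins and exporter that move class IIa HDACs between nucleus and cytoplasm, 16 had a named cluster and 14 passed the filter. The 16 were all kinases except the 14-3-3 gene SFN, and no phosphatase or exporter had a named cluster. With MS-275 in both backgrounds, 2 of 14 were higher past 1.5-fold and 0 lower, against 4.85% and 2.92% of the genes tested. CAMK1D, a calcium/calmodulin-dependent kinase, had intensities of 135, 123, 225 and 193. PRKD3, a protein kinase D, had 93.1, 136, 141 and 223, lowest in untreated cells, near the filter level, and highest with both drugs at 2.39-fold. With both drugs against untreated cells, the kinases CAMK4 (177 to 285) and SIK2 (561 to 883) were higher past 1.5-fold as well, and CAMK2D, a calcium/calmodulin-dependent kinase, was 2.03 times lower (279.9 to 138). In that comparison 3 of 14 were higher and 1 of 14 lower past 1.5-fold, beside 11.7% and 6.84% of the genes tested. SFN, or 14-3-3 sigma, a p53 target and the only 14-3-3 gene with a named cluster, had intensities of 855, 1918, 639 and 788. Its hydroxyurea array stood above all others, at 2.24-fold over untreated, and in the presence of MS-275 hydroxyurea gave 1.23-fold. The median log2 difference of the 14 genes with MS-275 was 0.01 without and 0.17 with hydroxyurea.

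Of 15 MEF2 target genes, 6 had a named cluster and 5 passed the filter. With MS-275 alone 3 of these were higher past 1.5-fold (EGR1, JUN and KLF2), and in the presence of hydroxyurea 1 was (EGR1), against 6.94% and 8.67% of the genes tested. EGR1, an immediate early transcription factor, had intensities of 676, 722, 1100 and 1134, that is 1.63-fold and 1.57-fold with MS-275. JUN, a subunit of the AP-1 transcription factor, had 78.4, 154, 208 and 204, and was lowest in untreated cells. There JUN was under the filter level, and it passed the filter through the other arrays. It therefore had to be higher on those, which adds to the count of 3. KLF2, a transcription factor of endothelium and T cells, had 186, 223, 306 and 220, and only the array with MS-275 alone stood out. These genes answer to many other regulators, and the part of class IIa HDACs in their levels was not tested.

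Of 24 substrates, partners and counterparts of HDAC6, 13 had a named cluster, all brighter than the filter, and 12 of these stayed within 1.5-fold in every comparison. Staying within that bound was common, as the highest and lowest array differed by 1.5-fold or more for 31.5% of the genes tested. With MS-275 in both backgrounds 1 of 13 was higher past 1.5-fold and 0 were lower, a share near the background of 4.85% and 2.92%. It was CYLD, a deubiquitinase that binds tubulin and inhibits HDAC6, with intensities of 112 untreated, 128 after hydroxyurea, 180 after MS-275 and 245 after both drugs, at 1.60-fold and 1.92-fold with MS-275. ATAT1, the acetyltransferase that opposes HDAC6 on tubulin, had intensities of 270, 277, 283 and 227, lowest with both drugs. The median log2 difference of the 13 genes with MS-275 was 0.07 without and -0.07 with hydroxyurea.

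In polyamine metabolism, the pathway of the HDAC10 substrate, 13 genes had a named cluster and 11 passed the filter. With MS-275 in both backgrounds, 1 of 11 was higher past 1.5-fold and 0 lower, against 4.85% and 2.92% of the genes tested. This was SAT1, which acetylates spermidine and spermine for breakdown and export, with intensities of 1919, 2028, 4260 and 3206 (2.22-fold and 1.58-fold). SRM, spermidine synthase, had 2268, 2573, 1966 and 1389. It was lower past 1.5-fold in the presence of hydroxyurea (0.54-fold) but not without it (0.87-fold). OAZ2, an antizyme that inhibits ornithine decarboxylase, had 92.0, 116, 145 and 145, lowest in untreated cells, near the filter level, and 1.57-fold with MS-275 alone. The median log2 difference with MS-275 was 0.10 without and 0.15 with hydroxyurea over the 11 genes. For HDAC11, the mitochondrial enzyme SHMT2, a known substrate, had intensities of 311, 311, 279 and 251 and stayed within 1.5-fold, and IL10, a cytokine gene repressed by HDAC11 in myeloid cells, was below the filter with 20.5 to 23.7.

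**Figure D4:**
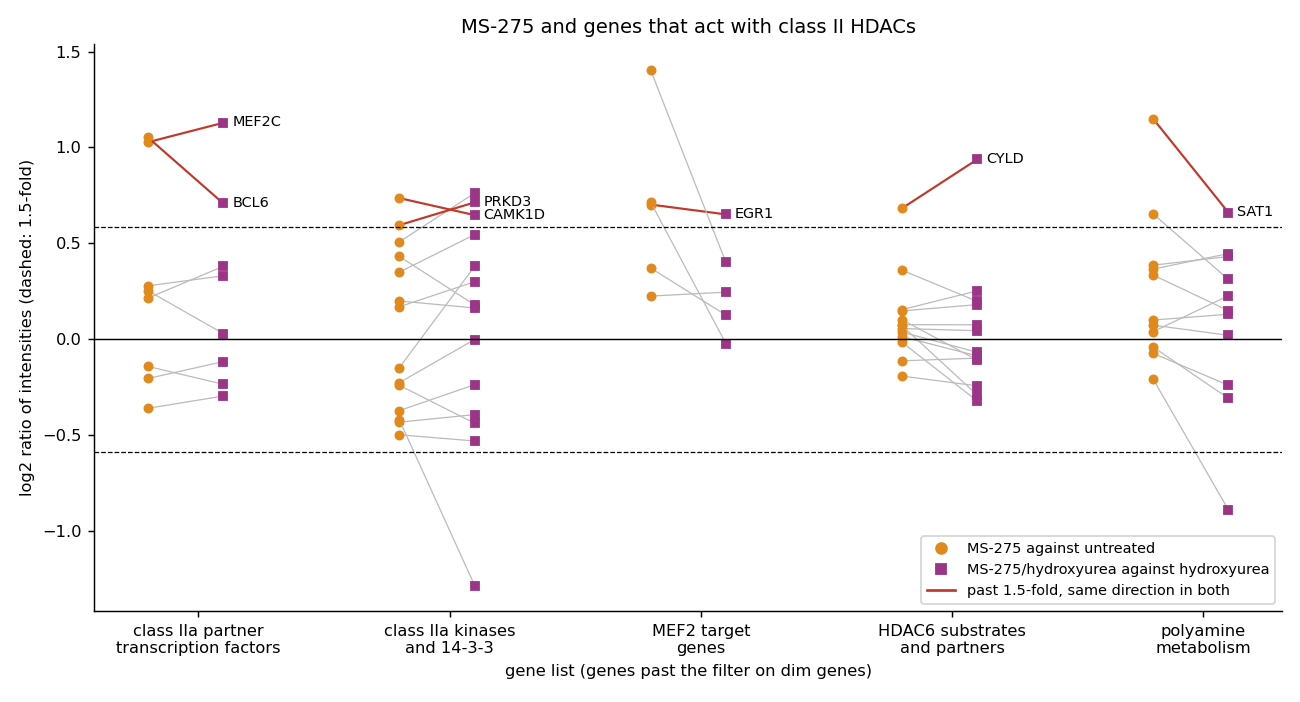
Each gene of 5 lists that passed the filter is drawn as a pair of log2 ratios for MS-275 (y axis), without hydroxyurea (orange) and with it (purple), joined by a line that is red where both passed 1.5-fold in the same direction. MEF2C and BCL6 (2 of 8), PRKD3 and CAMK1D (2 of 14), EGR1 (1 of 5), CYLD (1 of 13) and SAT1 (1 of 11) carry red lines, beside 4.85% of the genes tested higher in both. MEF2C passed the filter through the arrays with MS-275, so it had to be higher there. Both ratios of each of these genes are positive.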

How the data were processed

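RNA of untreated, hydroxyurea, MS-275 and MS-275/hydroxyurea HCT116 cells was hybridised to 1 array each. The authors ran RMA and deposited, for every transcript cluster, a normalized intensity that is linear by its range. No source used here names the RMA program. Of the clusters, 16098 had 1 symbol in the platform table, 0 had several and 37519 were unnamed. All named clusters matched RefSeq by Entrez identifier. For the 779 genes with several clusters the brightest was used, giving 14884 genes. A gene was tested, meaning counted in the background, where its mean log2 intensity reached the median of the named clusters (7649 genes, 6 of 7 members). Ratios are log2 ratios with no pseudocount, and the threshold was 1.5-fold. The steps were tested on simulated data.

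The members and gene lists were chosen with earlier results of these data known. Named genes are the members, the class I genes, from each list up to 3 genes past 1.5-fold with MS-275 in both backgrounds (otherwise up to 2 with the largest difference) and the 3 nearest neighbours. Other list genes were chosen after their values were seen. Among them were EPCAM, KRT18, KRT19, KRT20, CDX2, CEACAM5, CEACAM6, CLDN7, CHD4, TBL1XR1, TBL1X, MEF2A, MEF2D, CTBP1, CAMK2D, CAMK4, SIK2, SFN, JUN, KLF2, ATAT1, SRM and OAZ2. Alternatives were other filters, cluster rules, fold rules, an offset of 50, centring and renewed quantile normalization. Python 3.11.15, numpy 2.4.6, pandas 2.3.3 and matplotlib 3.10.9 were used.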

Additional observations from a re-analysis of the deposited data

How the results depend on the processing

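With 1 array per condition the number of arrays limits every value, leaving out a replicate was not possible, and no paired analysis was possible because the conditions hold 1 array each. The 1 called member difference, HDAC5 with both drugs, kept its direction. Differences near 0 turned: with hydroxyurea in the presence of MS-275, HDAC10 (to 0.036) and HDAC6 (to 0.020) with centring, HDAC11 (to -0.032) with renewed quantile normalization, HDAC4 (to 0.025) with the dimmest cluster, and the members' median of -0.00056 (to 0.036 with centring and 0.0012 with the dimmest cluster); and HDAC7 with hydroxyurea alone (to 0.022) with centring. Under the stricter filter, at the 75th percentile of named clusters (238.5), only HDAC5 remained, so the median of the members became 0.39 for MS-275 against untreated, 0.22 for hydroxyurea against untreated, 0.23 for MS-275/hydroxyurea against MS-275 and 0.62 for both drugs against untreated. The members' median for MS-275/hydroxyurea against hydroxyurea, 0.33 as reported, was 0.16 with the mean of a gene's clusters, 0.048 with the dimmest cluster and 0.22 with an offset of 50. With a rule of 25% (the higher over the lower value), 2 members were higher with MS-275 against untreated, 4 higher and 1 lower with MS-275/hydroxyurea against hydroxyurea, 1 lower with hydroxyurea against untreated, 1 lower with MS-275/hydroxyurea against MS-275, 2 higher and 1 lower with both drugs against untreated, and 2 higher with MS-275 in both backgrounds. The shares of the genes tested past 25% were not computed, so these counts do not set the members apart. With MS-275/hydroxyurea against hydroxyurea, 36.9% of the genes tested differed by more in size than HDAC4 (1.26-fold), which was among the 4 higher. The count of members higher with both drugs was 2 with each array centred on its median, 0 with the offset of 50 and 0 with a 2-fold rule, and HDAC5 at 1.54-fold and HDAC9 at 1.47-fold lie on either side of the threshold. Of 42 member differences, 4 moved by 0.1 or more on the log2 scale with the dimmest cluster, 3 with the mean of clusters, 8 with the offset and 0 with centring or renewed quantile normalization. For HDAC4 with hydroxyurea alone these were -0.21 (dimmest cluster), -0.39 (mean of clusters) and -0.39 (offset), against -0.57 as reported, and for HDAC4 with MS-275 in the presence of hydroxyurea the dimmest cluster gave -0.0039 in place of 0.33. HDAC9 lies in the dim range where background compresses ratios.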
